A study of Mus musculus with 18 samples.

Results

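The clones for the ferritin light chain gene Ftl1, the ferritin heavy chain gene Fth1 and the superoxide dismutase gene Sod1 were followed through the first 4 days of embryoid body (EB) growth. Every clone of the array whose only gene symbol in the probe annotation was Ftl1, Fth1 or Sod1 was taken, which gave 8 of 15360 clones. Ftl1 had 6 of them, BG063873, BG064796, BG064795, BG064794 and BG064474 on slide 1 and CK334837 on slide 2. Fth1 had BG063515 on slide 1, and Sod1 had BG074045 on slide 2. Ftl1 and Sod1 were chosen by the fall of their ratios in these same arrays, so that fall is described here without a test, while Fth1 was taken as the partner chain of Ftl1.

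The study followed the mouse embryonic stem (ES) cell line IMT11, which derives from 129 mice and carries no genetic modification. There were 9 conditions: EBs without LIF at Days 1 to 4 (D1-LIF, D2-LIF, D3-LIF, D4-LIF), EBs with LIF at the same days (D1+LIF, D2+LIF, D3+LIF, D4+LIF), and undifferentiated cells (D0), which were kept in LIF on gelatin. LIF, leukaemia inhibitory factor, is the cytokine that keeps mouse ES cells undifferentiated. EBs are floating aggregates of differentiating ES cells, here started from 1000 cells in a hanging drop, and the EBs of a dish were harvested together. Each condition was hybridised on 2 arrays against 1 pooled control, once with the sample in Cy3 and once in Cy5. All values come from 1 cell line. RNA was taken from whole cultures, so fewer cells of a type and less RNA per cell cannot be told apart.

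Ferritin is a hollow protein shell that stores iron in the cytosol. Its heavy chain oxidises ferrous iron on entry, and its light chain helps the iron core to form, while translation of both mRNAs is held back when iron is scarce by proteins that bind an element near their 5′ end. Sod1 is the cytosolic copper and zinc enzyme that turns superoxide into hydrogen peroxide, which can react with free ferrous iron. The mouse genome holds processed copies of ferritin genes, and a spotted cDNA can also bind near-identical transcripts, so each ferritin value is that of the clone and not of a single gene for certain.

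The 120 bases before the annotated starts of the members are shown because Ftl1 and Sod1 were low on many of the same arrays while Fth1 lay nearer to the pool. They are RefSeq sequences of build GRCm38.p6, written 5′ to 3′ on the strand of the gene. Capitals mark 3 motifs, whose matches may overlap. The CCAAT box was searched on both strands and reads ATTGG on the other one. The TATA box was searched as TATAAA on the strand of the gene only. The GC box was searched on both strands as GGGCGG, which reads CCGCCC on the other one.
Ftl1, chr7:45459887-45460006, minus strand: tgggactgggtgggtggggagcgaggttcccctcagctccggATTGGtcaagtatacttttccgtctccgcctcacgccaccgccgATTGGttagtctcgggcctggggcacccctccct
Fth1, first start, chr19:9980480-9980599, plus strand: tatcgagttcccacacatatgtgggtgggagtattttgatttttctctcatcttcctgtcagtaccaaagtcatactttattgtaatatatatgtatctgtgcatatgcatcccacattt
Fth1, other start, chr19:9982526-9982645, plus strand: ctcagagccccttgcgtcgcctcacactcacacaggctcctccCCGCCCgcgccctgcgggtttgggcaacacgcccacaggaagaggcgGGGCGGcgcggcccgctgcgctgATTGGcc
Sod1, chr16:90220642-90220761, plus strand: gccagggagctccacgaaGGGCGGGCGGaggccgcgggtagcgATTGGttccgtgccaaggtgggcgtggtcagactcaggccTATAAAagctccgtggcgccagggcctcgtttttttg
ATTGG stood 2 times in the Ftl1 window and 1 time each in the Sod1 window and in the window of the other Fth1 start. TATAAA was found in the Sod1 window only. GGGCGG or CCGCCC stood 2 times in the Sod1 window, where the matches overlap, and 2 times before the other Fth1 start. Of 32851 RefSeq promoters cut to the same length, 21.3% held ATTGG or CCAAT, 4.19% held TATAAA and 26.5% held GGGCGG or CCGCCC. A match is a run of letters and says nothing here of a factor that binds it.

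The values are ratios of sample to pool for each spot, given as the geometric mean of the 2 duplicate spots of a clone. The direction is not stated in the sources used here and is taken as sample over pool, which is likely because the labels list the sample as the first channel on all 18 arrays. Array medians ran from 0.655 (D0, Cy3) to 1.85 (D1-LIF, Cy5), so for fold changes each array was taken to log2 and centred on its median. The 2 dyes gave different pictures: over all clones the Cy3 and Cy5 arrays of a condition correlated at -0.51 to 0.48 (median -0.19), below 0 in 6 of 9 conditions. Within Cy3 the lowest correlation between arrays was -0.20 (D0 with D3-LIF, -0.31 on slide 2 alone), and within Cy5 it was 0.25. The D0 array in Cy3 stood apart, with a log2 median of -2.73 on slide 1 and -0.31 on slide 2, and with duplicate spots over 1 apart on the log2 scale in 14.5% of clones. The mean of the EB conditions against D0 is therefore also given without it for the members and the genes called. D0 then rests on a single array, so only the size of the difference is given for them. Of 4 measured ES cell markers, Pou5f1 and Nanog were lower in the mean of the EB conditions than in D0, by log2 changes of -1.40 ± 0.36 (SE, adjusted p = 0.0427, limma) and -1.35 ± 0.29 (SE, adjusted p = 0.0212, limma), where 6.24% of 4679 genes were called, all lower. Without the D0 array in Cy3 they stood at -1.49 for Pou5f1 and -0.87 for Nanog, and with the Cy3 arrays turned at -0.085 for Pou5f1 and 0.48 for Nanog. By RT-PCR the study saw both genes (Pou5f1 as Oct4) kept up or raised in EBs at high serum, with a possible small dip at Day 1. The fall on the arrays thus differs from its PCR.

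Sod1 was below D0 on every EB array of both dyes. With the sample in Cy3 its ratio was 2.27 in D0, 0.745 in D1-LIF, 1.26 in D2-LIF, 0.592 in D3-LIF, with 0.731 in D4-LIF. In EBs with LIF on the same dye it was 0.902 at Day 1, 0.872 at Day 2, 0.730 at Day 3 and 0.710 at Day 4. All 8 EB arrays were below D0, and D2-LIF alone among them was above the pool.

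With the sample in Cy5 the Sod1 ratio was 0.770 in D0, 0.217 in D1-LIF, 0.363 in D2-LIF, 0.272 in D3-LIF, with 0.257 in D4-LIF. With LIF it was 0.275 at Day 1, 0.243 at Day 2, 0.390 at Day 3 and 0.490 at Day 4. Again all 8 EB arrays were below D0, but here D0 itself was below the pool. The last value rests on duplicate spots that did not agree, at 0.120 and 2.00.

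After centring, Sod1 in the mean of the 8 EB conditions stood at a log2 difference of -1.86 ± 0.24 (SE) from D0, and single conditions lay between -1.16 ± 0.32 in D2-LIF and -2.31 ± 0.32 in D1-LIF. The D2-LIF value was the smallest on each dye, at -1.19 in Cy3 and -1.12 in Cy5. With other scalings of the arrays the mean was -0.89 (equal spread), -1.16 (equal spread within slides) and -1.23 (quantile normalization). Without the D0 array in Cy3 the mean was -1.71, and with the Cy3 arrays given the opposite sign it was 0.15, so the fall depends on the direction of the Cy3 ratios. In the order of condition means against the pool, D1-LIF was lowest and D0 highest. The gap between D0 and the next condition, D2-LIF, was 1.16 against an SE of 0.32 for a difference. D2-LIF lay 0.52 above D4+LIF, and the other neighbours were closer to each other than that SE. With the Cy3 arrays turned D1-LIF was still lowest, at -1.32, but D4+LIF was highest, at -0.71, and D0 stood at -1.19.

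**Figure D1:**
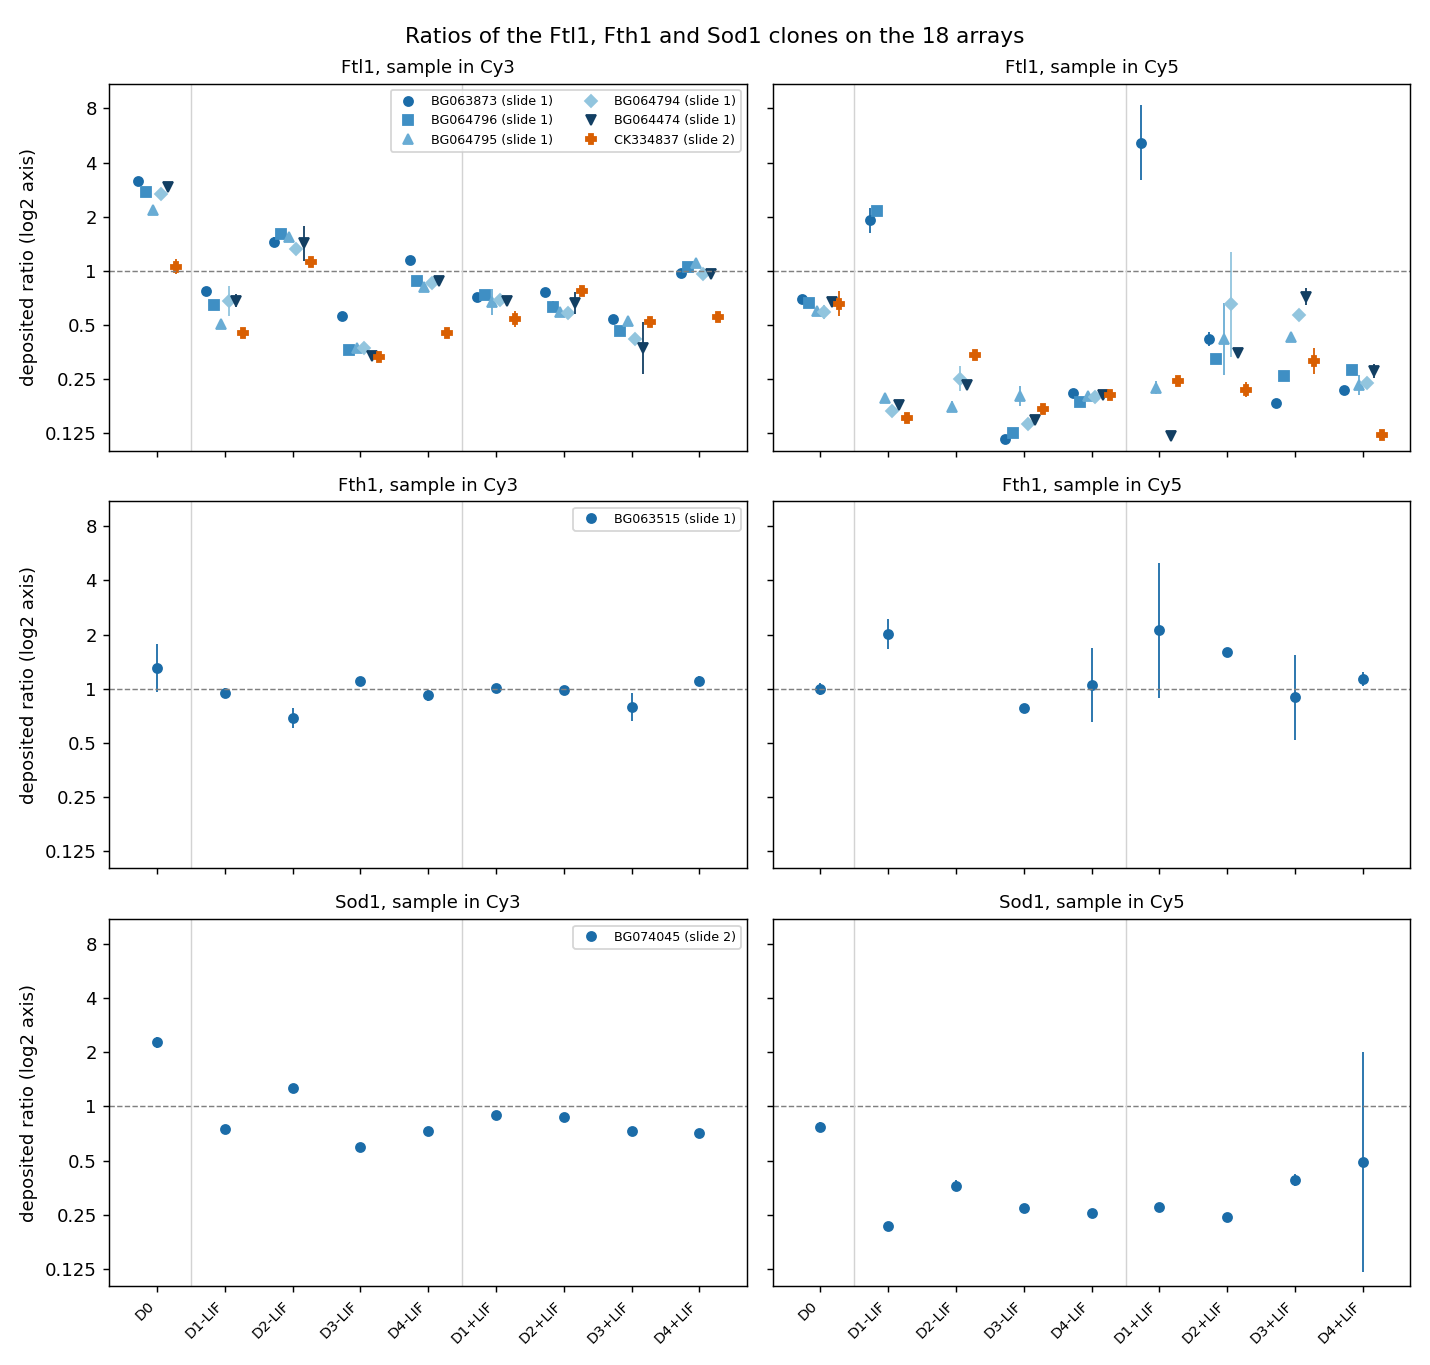
Deposited ratio (log2 axis, dashed line at 1) of every clone on every array, with Ftl1 at the top, Fth1 in the middle and Sod1 at the bottom, the sample in Cy3 on the left and in Cy5 on the right. Points are geometric means of the duplicate spots and lines span the 2 spots; the Sod1 point of D0 lies above its 8 EB points on both dyes (2.27 in Cy3 and 0.770 in Cy5).

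Ftl1 on slide 2, clone CK334837, followed Sod1 in outline. Its Cy3 ratio was 1.05 in D0, 0.449 in D1-LIF, 1.12 in D2-LIF, 0.332 in D3-LIF, with 0.453 in D4-LIF. With LIF in Cy3 it was 0.538 at Day 1, 0.769 at Day 2, 0.520 at Day 3 and 0.550 at Day 4. Only D2-LIF was not below D0 on this dye, and in D3-LIF and D1+LIF the clone had the lowest ratio of its slide.

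Its Cy5 ratio was 0.658 in D0, 0.152 in D1-LIF, 0.338 in D2-LIF, 0.170 in D3-LIF, with 0.204 in D4-LIF. With LIF in Cy5 it was 0.242 at Day 1, 0.218 at Day 2, 0.316 at Day 3 and 0.122 at Day 4. No EB value overlapped that of D0 on this dye. The mean of the EB conditions stood at -1.72 ± 0.28 (SE, log2) from D0, or -2.02 without the D0 array in Cy3, and at -0.30 with the Cy3 arrays turned, the only one of the 7 Ftl1 and Sod1 clones that stayed below 0 there.

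The 5 Ftl1 clones of slide 1 are annotated to 1 gene, so they are not replicates of a condition. In Cy3 their ratios were 2.18 to 3.15 in D0, and 0.505 to 0.772 in D1-LIF, 1.32 to 1.59 in D2-LIF, 0.336 to 0.562 in D3-LIF, with 0.812 to 1.14 in D4-LIF. With LIF they were 0.670 to 0.737 at Day 1, 0.586 to 0.758 at Day 2, 0.372 to 0.539 at Day 3 and 0.955 to 1.10 at Day 4. The clones kept close together on this dye, with no EB ratio as high as any of D0, and with D2-LIF the highest EB condition.

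In Cy5 the slide 1 clones differed more. D0 gave 0.593 to 0.698, D3-LIF 0.116 to 0.201 and D4-LIF 0.186 to 0.209 for all 5. In D1-LIF 3 clones gave 0.165 to 0.195, whereas BG063873 gave 1.91 and BG064796 gave 2.16. BG063873 also gave 5.16 in D1+LIF, from spots of 8.34 and 3.19, where BG064795 and BG064474 gave 0.224 and 0.120. Clones annotated to the same gene thus lay on opposite sides of the pool on these 2 arrays, which include the D1+LIF array in Cy5 with 7973 spots without a value. What these readings owe to the arrays was not tested.

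BG064474 had a value on every array and the largest difference from D0 among the Ftl1 clones. Its Cy5 ratio was 0.669 in D0, 0.180 in D1-LIF, 0.233 in D2-LIF, 0.148 in D3-LIF, with 0.203 in D4-LIF. With LIF in Cy5 it was 0.120 at Day 1, 0.348 at Day 2, 0.719 at Day 3 and 0.277 at Day 4. The D3+LIF array in Cy5 was the only EB array of either dye on which the ratio of this clone was not below that of D0. After centring, the mean of the EB conditions was -2.22 ± 0.52 (SE, log2) from D0, against -1.85 without the D0 array in Cy3 and 0.37 with the Cy3 arrays turned.

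Over all 6 Ftl1 clones the mean of the EB conditions stood at -1.68 to -2.22 from D0 (median -1.87), with SEs of 0.28 to 0.90. Without the D0 array in Cy3 it was -0.89 for BG063873, -1.21 for BG064796, -1.49 for BG064794 and -1.65 for BG064795, with a median of -1.57 over the 6. With other scalings the 6 clones lay at -0.69 to -1.26 (equal spread), -0.93 to -1.38 (equal spread within slides), -1.17 to -1.68 (quantile normalization) and -1.66 to -3.21 (centred within slides). The median over the 8740 clones measured on all arrays was -0.059. In this fit 6.14% of clones were called in the mean of the EB conditions (adjusted p under 0.05), and by condition D1-LIF had 5.65%, D3-LIF 3.68%, D4+LIF 4.38%, D3+LIF 3.31%, D2-LIF and D1+LIF 0.0114% each, and D4-LIF and D2+LIF 0%. Without LIF the largest difference from D0 was in D3-LIF (-2.28 to -3.14) and the smallest in D2-LIF (-0.61 to -1.46). Each of the 6 clones stood below 0 in each of the 8 conditions, nearest to 0 in D1+LIF for BG063873, at -0.10 ± 1.19 (SE). With the Cy3 arrays turned this order did not hold: D3-LIF lay at 0.010 to 0.65 and D2-LIF at -0.62 to 0.042. Without the D0 array in Cy3, D3-LIF lay at -2.24 to -2.75 and D2-LIF at -1.10 to 0.086. BG063873, BG064796 and BG064794 lacked a value on 1 or 2 arrays and were fitted on 17, 16 and 17 arrays, with larger SEs.

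A difference from D0 in the same direction on both dyes was common among all clones once arrays were centred. After centring, among clones with values on all 4 arrays, the share lower than D0 on both dyes was 35.5% for D3-LIF, 33% for D4-LIF, 25.9% for D3+LIF and 22.6% for D4+LIF, and all 8 members were among them in these 4 conditions. In D1-LIF it was 5 of 8 members (37.7% of all clones), in D2-LIF 5 of 5 (36.8%), in D1+LIF 4 of 6 (39%) and in D2+LIF 7 of 8 (20.1%). Fth1 was among those not lower in D1-LIF, D1+LIF and D2+LIF. With the Cy3 arrays turned 0 members were lower on both dyes in any condition, against 17% to 26.7% of all clones. In ratios as deposited, with no array turned, the share of all clones was smaller, from 9.29% (D3+LIF) to 16.4% (D2-LIF). All 8 members were lower there only in D3-LIF, with 10.2% of all clones. Since 7 of the 8 clones were chosen for this fall, nothing is read from these counts.

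The criterion that all 4 spots of a condition lie at least 2-fold below the pool is stricter. In D3-LIF it was met by all Ftl1 clones but BG063873, that is by 5 of the 8 members and 0.384% of all clones. CK334837 also met it in D1-LIF (0.0391% of all clones) and D4-LIF (0.0195%), and BG064796 met it in D3+LIF (0.124%). Neither Sod1 nor Fth1 met it in any condition. By the mean over both dyes instead of every spot, 36 of the 72 pairs of clone and condition were at least 2-fold below the pool in ratios as deposited, and 45 in the fit of centred arrays. Ftl1 and Sod1 were chosen for their fall, and the Ftl1 clones are annotated to the same gene. Nothing is therefore read from these counts.

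**Figure D2:**
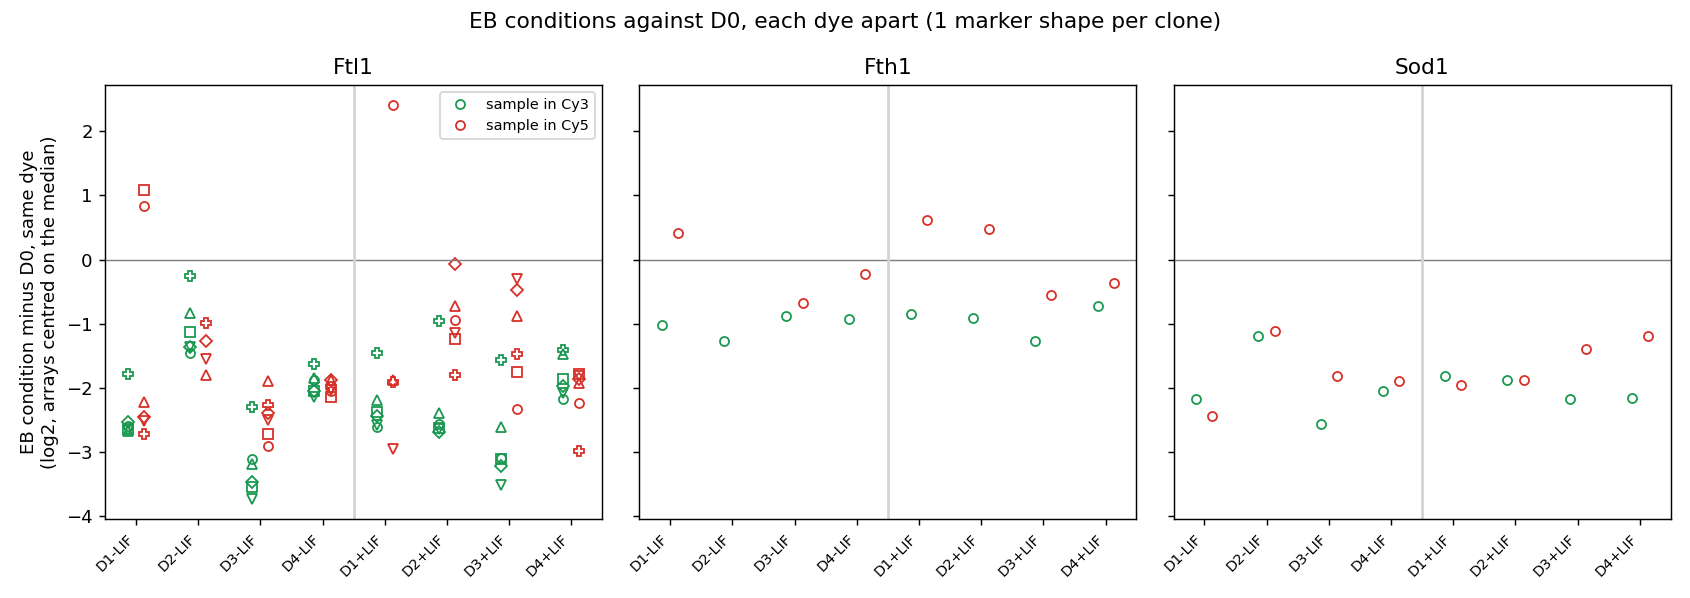
Each EB condition minus D0 on the same dye (log2, arrays centred on the median) for Ftl1, Fth1 and Sod1, with 1 marker shape per clone, green for the sample in Cy3 and red for Cy5. Sod1 lies between -1.12 and -2.57 on all 16 pairs of arrays, whereas Fth1 in Cy5 lies above 0 in D1-LIF, D1+LIF and D2+LIF.

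The rank of a clone within its slide does not depend on centring. Ftl1 clones lay at percentiles 0.0065 to 0.944 of their slide in D3-LIF in Cy3 and 0.228 to 1.58 in Cy5, against 82.1 to 96.6 in Cy3 and 3.11 to 6.71 in Cy5 in D0. In Cy3 they were also high in D2-LIF, at 85.3 to 92.5. Sod1 was at 98.5 in D0 and 92.4 in D2-LIF in Cy3, and ranked at 0.618 to 6.26 on the 7 remaining arrays of that dye. With the sample in Cy5, D0 ranked at 10.1 and EBs at 1.35 to 8.12. A split by slide was seen at Day 4 in Cy3: the slide 1 Ftl1 clones ranked at 57.0 to 87.4 in D4-LIF and 77.2 to 87.7 in D4+LIF, while CK334837 on slide 2 ranked at 0.033 and 0.072. The log2 medians of slides 1 and 2 on these arrays were -0.36 and -0.042 in D4-LIF, and -0.31 and -0.040 in D4+LIF.

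**Figure D3:**
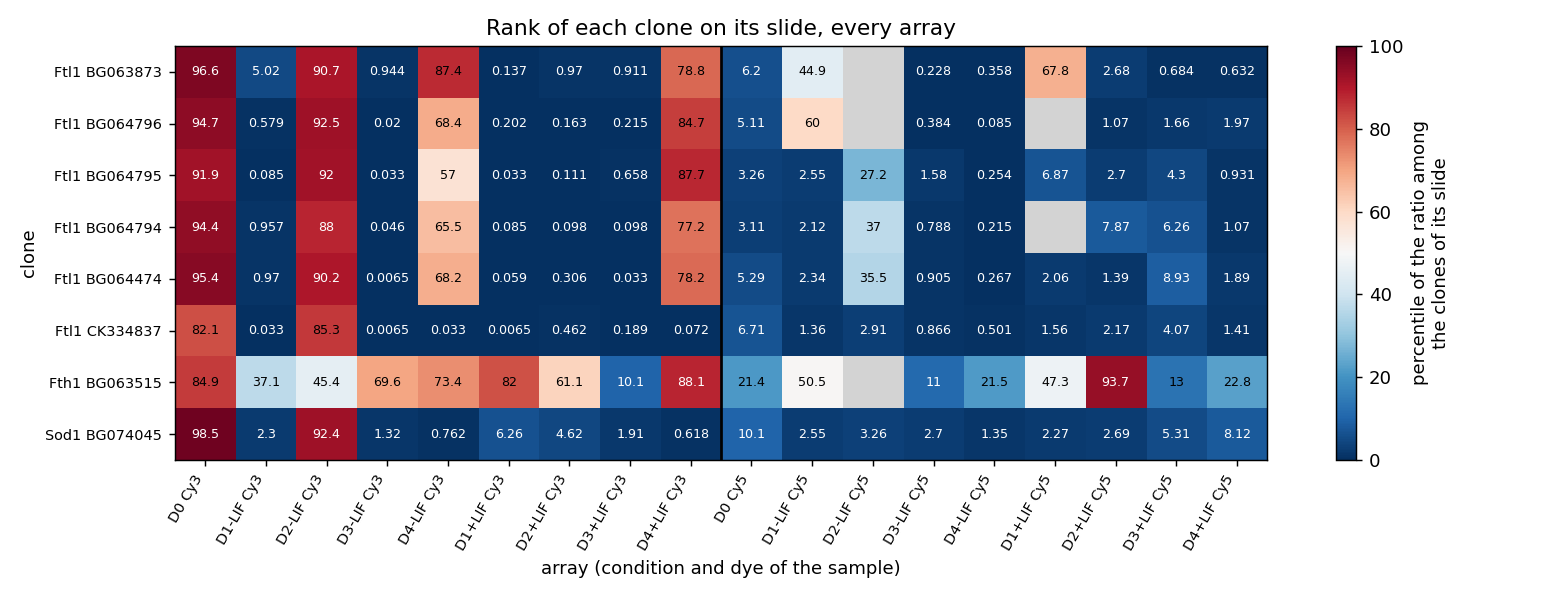
Percentile of the ratio of each clone among the clones of its slide (colour and printed number, higher for higher ratios) on the 9 Cy3 arrays, left of the line, and the 9 Cy5 arrays, right of it, with grey for no value. Ftl1 and Sod1 are at 82.1 or higher in Cy3 in D0 and D2-LIF, and the slide 1 Ftl1 clones are high at Day 4 in Cy3 where CK334837 is at 0.033 and 0.072.

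Fth1, the heavy chain, lay nearer to the pool than Ftl1 on most arrays. Its Cy3 ratio was 1.30 in D0, 0.951 in D1-LIF, 0.687 in D2-LIF, 1.10 in D3-LIF, with 0.919 in D4-LIF. With LIF in Cy3 it was 1.01 at Day 1, 0.983 at Day 2, 0.790 at Day 3 and 1.11 at Day 4. All EB values were below that of D0 and lay between 0.687 and 1.11.

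In Cy5 the Fth1 ratio was 0.994 in D0, 2.02 in D1-LIF, 0.777 in D3-LIF, with 1.05 in D4-LIF, with no value in D2-LIF. With LIF in Cy5 it was 2.11 at Day 1, 1.59 at Day 2, 0.896 at Day 3 and 1.13 at Day 4. On this dye D0 lay among the EB values. The Day 1 value with LIF is the mean of spots at 0.892 and 5.00.

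Fth1 was tested against D0. In the mean of the EB conditions it differed by -0.54 ± 0.31 (SE, log2, adjusted p = 0.251, limma over 15360 clones), in a comparison that called 1.43% of clones. Single conditions lay between -0.11 ± 0.41 in D1+LIF (SE, adjusted p = 0.906, limma) and -0.91 ± 0.41 in D3+LIF (SE, adjusted p = 0.258, limma). In this fit of all arrays none of the 8 conditions passed the threshold of 0.05. By condition, 0.97% of clones were called for D1-LIF, 0.853% for D4+LIF, 0.625% for D3-LIF, 0.456% for D3+LIF and 0% for the other 4. The mean was -0.088 without the D0 array in Cy3 and -0.98 without the D0 array in Cy5, where D3+LIF lay farthest from D0 (-1.36 ± 0.45 SE). Each of these fits leaves D0 on a single array, so the result for Fth1 depends on which D0 array is used. The D3+LIF value in Cy5 is the mean of spots at 1.54 and 0.520. That of D0 in Cy3 is the mean of spots at 1.77 and 0.958. With the Cy3 arrays turned the mean was 0.49. Other scalings gave -0.080 (equal spread), -0.14 (equal spread within slides), -0.22 (quantile normalization) and -1.64 (centred within slides). In the order of its condition means, no neighbours of Fth1 differed by more than 0.23, with an SE of 0.41 for a difference.

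Within EBs, Days 3 and 4 were set against Days 1 and 2, which leaves the D0 arrays out of the difference. Fth1 differed by -0.087 ± 0.33 without LIF and by -0.56 ± 0.29 with LIF (SE, log2), and neither passed the test (adjusted p = 0.99992 and 0.999, limma; 0% of clones called in each). The 3 Ftl1 clones with a value on every array stood at -0.31, -0.58 and -0.61 without LIF and at 0.078, 0.40 and -0.33 with LIF, for BG064795, BG064474 and CK334837 in that order. Sod1 stood at -0.35 ± 0.23 without LIF and 0.15 ± 0.23 with LIF (SE). The values of Ftl1 and Sod1 are descriptions, and whether the difference between both media is real was not tested.

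The effect of LIF was not used to choose the members and was tested for all 8. Over Days 1 to 4 the difference between EBs without LIF and EBs with LIF was -0.10 ± 0.16 for Sod1 (SE, log2, adjusted p = 0.703, limma). Among the Ftl1 clones it lay between -0.39 ± 0.40 for BG064794 and 0.36 ± 0.46 for BG064796 (SE), with -0.28 for BG064795, -0.18 for BG064474, -0.051 for CK334837 and 0.035 for BG063873. Fth1 differed by -0.19 ± 0.22 (SE). The lowest adjusted p was 0.560 (limma), so none of the 8 passed. The sign of each of the 8 clones turned under at least 1 other centring or scaling of the arrays or with the Cy3 arrays turned. Of all clones 0% were called in this comparison (0 of 8740 on every array, with 637 at an unadjusted p under 0.05). BG063873, BG064796, BG064794 and Fth1 were tested in the fit of clones with at least 1 array per condition. That fit called 0 of 15360, with 352 at an unadjusted p under 0.05. Without the D4+LIF array in Cy3 the difference was -0.20 for Sod1 and 0.094 for CK334837.

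By day, the effect of LIF had the same sign on both dyes at Days 1, 2 and 3 in Sod1 and CK334837, both on slide 2. Sod1 was higher in D2-LIF than in D2+LIF, by 0.70 in Cy3 and 0.75 in Cy5. At Day 1 it was lower without LIF, by log2 differences of -0.35 in Cy3 and -0.49 in Cy5, and likewise at Day 3, at -0.39 in Cy3 and -0.43 in Cy5. At Day 4 the dyes gave 0.11 in Cy3 and -0.70 in Cy5. The fitted Day 2 difference of Sod1 was 0.72 ± 0.32 (SE), which did not pass the test (adjusted p = 0.626, limma; 0% of clones called, 355 of 8740 at an unadjusted p under 0.05).

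CK334837 had the same signs as Sod1 at Days 1 to 3. Its difference was -0.34 in Cy3 and -0.82 in Cy5 at Day 1, 0.71 in Cy3 and 0.81 in Cy5 at Day 2, and -0.73 in Cy3 and -0.80 in Cy5 at Day 3. At Day 4 it was -0.22 in Cy3 and 0.99 in Cy5. The fitted Day 2 difference was 0.76 ± 0.37 (SE, adjusted p = 0.626, limma) and the Day 3 difference -0.77 ± 0.37 (SE, adjusted p = 0.99997, limma). Neither passed, and of all clones 0% were called on any of the 4 days.

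With each array centred on its median, the slide 1 Ftl1 clones had the Day 2 difference in Cy3 only. In Cy3 all 5 were higher in D2-LIF than in D2+LIF, by 1.10 to 1.56, whereas in Cy5 the 3 with a value were at -1.08, -1.20 and -0.40 (BG064795, BG064794 and BG064474). The D2+LIF spots in Cy5 did not agree for BG064795, at 0.263 and 0.664, nor for BG064794, at 1.28 and 0.330. The D2-LIF array in Cy5 lacked a value in 15249 spots, leaving 1115 of the 7680 clones of slide 1 with one. Its log2 median was -1.31 on slide 1, over those 1115 clones, and 0.29 on slide 2. Centred within slide 1 instead, the same 3 clones stood at -1.20, -0.68 and -0.79 in D2-LIF in Cy5. In D2+LIF in Cy5 they stood lower, at -1.62, -0.98 and -1.88, so the sign in Cy5 was then that of Cy3. At Day 3 all 6 Ftl1 clones were lower without LIF on both dyes, but by -0.027 in Cy3 for BG063873 and by -2.19 in Cy5 for BG064474, and the fitted differences were -0.30 to -1.21 with none past the threshold. For Fth1 the Day 2 difference was -0.35 in Cy3, with no value in Cy5.

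**Figure D4:**
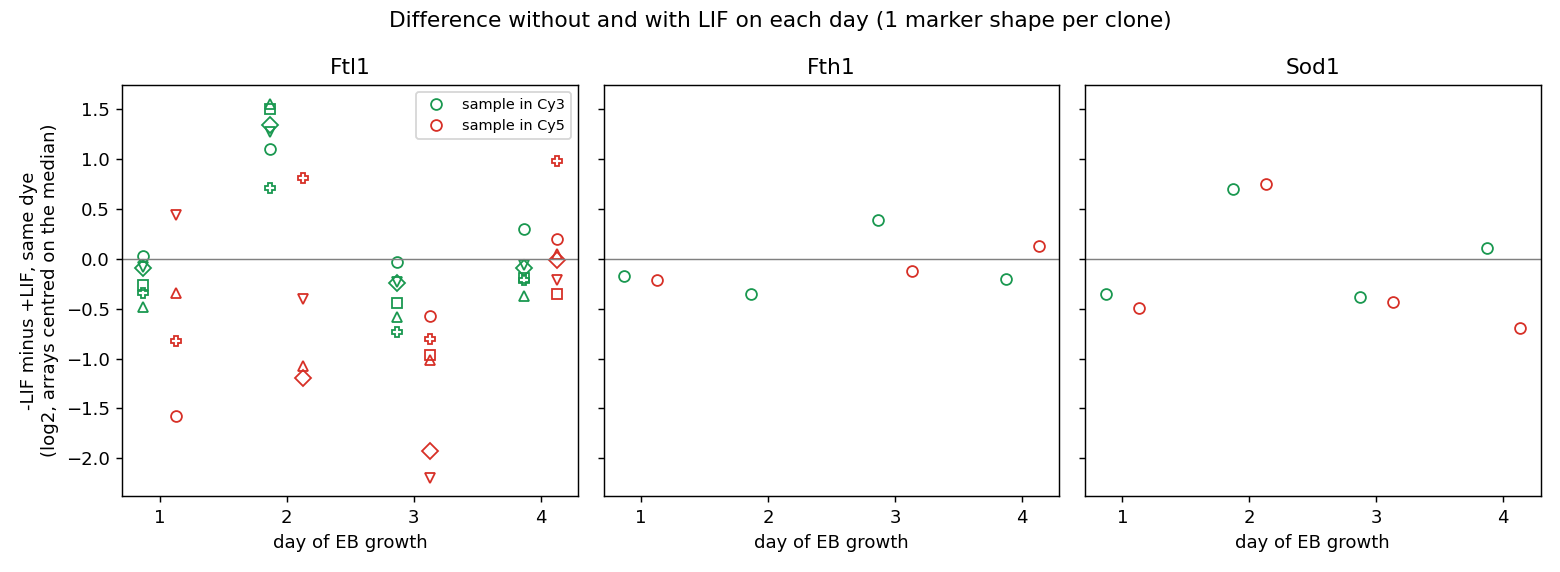
Difference without minus with LIF on each day and dye (log2, arrays centred on the median) for Ftl1, Fth1 and Sod1, with 1 marker shape per clone, green for the sample in Cy3 and red for Cy5. Sod1 and the Ftl1 clone CK334837 (plus sign) lie below 0 at Days 1 and 3 and above 0 at Day 2 on both dyes, while the Ftl1 clones of slide 1 split by dye at Day 2. Centred within slide 1 instead, their Cy5 values at Day 2 turn above 0.

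The members were also set against each other over arrays of 1 dye, as a description. Over the 9 Cy3 arrays, pairs of Ftl1 clones correlated at 0.84 to 0.997 and Sod1 with the Ftl1 clones at 0.90 to 0.93. Over the 7 to 9 Cy5 arrays shared, Ftl1 pairs lay between -0.28 and 0.98, and between 0.70 and 0.93 once BG063873 and BG064796 were left out. Sod1 correlated with the Ftl1 clones at -0.13 to 0.75 in Cy5. Fth1 correlated with the Ftl1 clones at 0.40 to 0.70 in Cy3 and -0.26 to 0.88 in Cy5. All arrays share the pool, and arrays of 1 dye also share its bias. Ftl1 and Sod1 were both chosen for their fall in these arrays and Fth1 was not. A high correlation of Ftl1 with Sod1, and a lower one of Fth1, thus follows in part from that choice.

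The genes most like each member over the arrays, after the mean of each dye was taken off, were found among 4678 or 4679 genes with no missing array. For Ftl1, averaged over its 3 complete clones, they were Cfl1 (r = 0.96), Copb2 (0.96), Rpl8 (0.95), Sinhcaf (0.94) and Tubb4b (0.94) over 18 arrays, where the median gene had r = 0.20. Cfl1 encodes the actin-severing protein cofilin, Copb2 a coat protein of transport vesicles, Rpl8 a ribosomal protein, and Tubb4b a beta tubulin. Sod1 correlated with Ftl1 at 0.87, which the choice of both for their fall favours, and 53 genes were closer to Ftl1. For Sod1 they were Anxa6 (0.94), Lztr1 (0.92), Ndufv2 (0.90), Snrpc (0.90) and Eef2 (0.90), where Eef2 is the elongation factor that moves the ribosome along the mRNA. For Fth1, over 17 arrays, they were Mybl2 (0.71), the peroxiredoxin gene Prdx1 (0.70), Usp34 (0.69), Dnmt3l (0.69) and Tsen34 (0.68), with Ftl1 at 0.23 and Sod1 at 0.16. All these correlations include the D0 array in Cy3, where centred log2 values were 1.48 for Ftl1 and 1.75 for Sod1. The next highest Cy3 values were 0.66 and 0.56, both in D2-LIF. The correlations were not repeated without D0 in Cy3.

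Other genes of iron handling were measured in part. Of 31 listed, 17 were on the array and 11 were measured on all arrays. In the mean of the EB conditions 0 of 11 passed the threshold as higher than in D0 and 2 of 11 as lower, against 6.24% of 4679 genes called. The median of the list was -0.040 and that of all genes -0.086. Pcbp2 differed by -1.72 ± 0.28 (SE, adjusted p = 0.00659, limma). It encodes a poly(C)-binding protein that can carry iron to ferritin. Fbxl5, part of the ubiquitin ligase that degrades an iron regulatory protein when iron is plentiful, differed by -2.49 ± 0.49 (SE, adjusted p = 0.0147, limma). Both also passed against D0 at Day 1 without LIF (5.64% of genes called) and at Day 3 without (2.74%) and with LIF (2.63%), and Pcbp2 passed at Day 4 with LIF (3.4%). At Day 2 without LIF, where 0.0214% of genes were called, and in the other 3 conditions, with 0% called, no gene of this list passed. Without the D0 array in Cy3, which leaves D0 on a single array, the mean of the EB conditions was -1.85 for Pcbp2 and -3.04 for Fbxl5. With the Cy3 arrays turned the values were -0.13 for Pcbp2 and -0.56 for Fbxl5.

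The transferrin receptor gene Tfrc, the main route of iron uptake, stood at -0.33 ± 0.27 in the mean of the EB conditions against D0 (SE, adjusted p = 0.628, limma), and at 0.0036 without the D0 array in Cy3. Hmox1, which frees iron from haem, stood at -1.02 ± 0.31 (SE, adjusted p = 0.0746, limma), and Slc40a1, the iron exporter ferroportin, at 0.47 ± 0.22 (SE, adjusted p = 0.267, limma). For the effect of LIF over Days 1 to 4, 0 of 11 passed and 0% of genes were called. The smallest p-values belonged to Hmox2 (-0.27), Slc40a1 (-0.28), Slc11a2 (-0.27) and Hmox1 (-0.34), each with an adjusted p of 0.467 (limma). Without the D4+LIF array in Cy3, Tfrc, Slc11a2 and Slc40a1 passed, all lower without LIF, in a fit that called 20.8% of all genes.

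Of 43 listed genes of antioxidant defence, 30 were on the array and 22 were measured on all arrays. In the mean of the EB conditions 0 of 22 passed the threshold as higher than in D0 and 2 of 22 as lower, against 6.24% of all genes called. Both are glutathione transferase genes, whose enzymes conjugate reactive compounds. Gstp1 differed by -1.86 ± 0.47 (SE, adjusted p = 0.0395, limma) and Gsta4 by -1.09 ± 0.27 (SE, adjusted p = 0.0386, limma). The thioredoxin gene Txn1 passed at Day 1 without LIF and in no other comparison with D0, at -1.39 ± 0.34 (SE, adjusted p = 0.0376, limma). At Day 1 without LIF 5.64% of all genes were called. The list had a median of -0.18 in the mean of the EB conditions, and all genes one of -0.086. Without the D0 array in Cy3 Gstp1 stood at -1.41 and Gsta4 at -0.38 in the mean of the EB conditions, and Txn1 at -0.87 in D1-LIF. With the Cy3 arrays turned Gstp1 stood at 0.45 and Gsta4 at 0.72 in that mean, and Txn1 at 0.26 in D1-LIF.

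The catalase gene Cat, whose enzyme removes the hydrogen peroxide that Sod1 makes, stood at 0.063 ± 0.24 in the mean of the EB conditions against D0 (SE, adjusted p = 0.972, limma). Ccs, the chaperone that loads copper into Sod1, stood at -0.084 ± 0.16 (SE, adjusted p = 0.917, limma), so its value lay near that of the median gene. For the effect of LIF 0 of 22 passed, and 0% of all genes were called. The smallest p-values belonged to Txnip (-0.35), Cat (-0.33), Gpx8 (-0.50) and Gpx1 (-0.31), with an adjusted p of 0.467 each (limma). Without the D4+LIF array in Cy3, Gpx8, Txnip and Mgst3 passed, all lower without LIF, where 20.8% of all genes were called.

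Markers of cells that EBs can form were read beside the members. Of 4 red cell lineage genes measured (Hba-x, Hbb-y, Gata1 and Alas2), which mark cells that hold much iron, 0 passed in the mean of the EB conditions against D0, and the list median was 0.28. Of 7 extraembryonic endoderm genes 1 passed, against 6.24% of all genes, namely Sparc, at -1.64 ± 0.34 (SE, adjusted p = 0.0182, limma). Sparc stood at -1.56 without the D0 array in Cy3 and at 0.089 with the Cy3 arrays turned. Of 6 mesoderm genes 1 was on the array and 0 were measured on all arrays. Their part in the values of Ftl1, Fth1 and Sod1 was not tested.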

How the data were processed

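The authors labelled RNA with Cy3 or Cy5, scanned the slides, quantified the spots with ImaGene and scaled each channel to its own mean intensity, and they deposited linear ratios per spot, 34560 for each of 18 arrays. Intensities were not used here, so dim spots could not be left out, and the number of arrays limits the precision. The labels state 2 biological sets, with repeat arrays labelled from separate RNA, and do not say which set carries which dye, so dye and set cannot be told apart. The labels describe the pool as EBs of Days 1 to 4 and the study as all samples.

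Here the ratios were taken to log2 (1 value at 0 was left out), duplicate spots were averaged and arrays were centred on their median over all clones. Of 15360 clones, 9866 carried 1 symbol, 274 several and 5220 none in the platform annotation. The 8740 clones without a missing array were fitted with limma 3.58.1 (R 4.3.3) with 9 condition means and a dye term. The dye is also the replicate, so this term is the block. Clones with missing values were taken from a fit of clones with at least 1 array per condition. P-values were adjusted by Benjamini-Hochberg over all clones, or over 4679 genes for lists. Tested on simulated data for the LIF effect over Days 1 to 4 with 8740 clones, the fit recovered 68.7% of log2 changes of 1 and 98.5% of those of 2. The simulated noise was independent for each clone, with 1 dye shift shared by all clones. It held no array-wide errors and no dye differences of single clones, so these rates may not hold for the arrays here. Clones with missing values, BG063873, BG064796, BG064794 and Fth1 among them, were not covered. The study used SAM on 4 repeats that count duplicate spots as replicates, which was not run. It also asked for a 2-fold change and a signal above that of blank spots, and then checked genes by RT-PCR on replicate EB samples. After RT-PCR the study counted Ftl1 among its differentially regulated genes. It lists Pcbp2 and Anxa6 among genes found on the arrays that did not pass its RT-PCR check.

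The members and gene lists were chosen with earlier results of these data known. Named are all member clones, list genes past the threshold or otherwise the 4 of smallest p, and the 5 genes most correlated with each member. Tfrc, Slc40a1, Hmox1, Cat and Ccs against D0 were named after their values were seen. Alternatives were values as deposited, equal median absolute deviation (MAD), quantile normalization, no dye term, array weights, centring within slides or on the clones tested, concordant duplicate spots, at least 1 array per condition, only the arrays compared, turned Cy3 signs and each array left out. Chosen after seeing the data were equal MAD within slides, centring on all spots, and the test of the LIF effect between days. Figures were drawn with matplotlib 3.10.9.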

Additional observations from a re-analysis of the deposited data

Results flagged for a closer look

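The difference without minus with LIF changed sign between days on both arrays for 3 clones, which is what singled them out. For Sod1 BG074045 it was -0.35 (Cy3) and -0.49 (Cy5) at Day 1, 0.70 (Cy3) and 0.75 (Cy5) at Day 2, and -0.39 (Cy3) and -0.43 (Cy5) at Day 3, on the log2 scale. For Ftl1 CK334837 it was -0.34 (Cy3) and -0.82 (Cy5) at Day 1, 0.71 (Cy3) and 0.81 (Cy5) at Day 2, and -0.73 (Cy3) and -0.80 (Cy5) at Day 3. The difference between days was tested in the same fit: Day 2 minus Day 1 was 1.15 ± 0.45 for Sod1 and 1.34 ± 0.52 for CK334837 (SE, adjusted p = 0.843 each, limma), and Day 2 minus Day 3 was 1.13 ± 0.45 for Sod1 and 1.52 ± 0.52 for CK334837 (SE, adjusted p = 0.997 each, limma). None passed the threshold, and 0 of 8740 clones did in either test, with 348 and 264 at an unadjusted p under 0.05. For Ftl1 BG063873 the difference was -0.027 (Cy3) and -0.57 (Cy5) at Day 3, and 0.30 (Cy3) and 0.19 (Cy5) at Day 4, and Day 3 was not tested against Day 4. Each sign rests on 2 arrays.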

How the results depend on the processing

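None of the 8 clones passed the LIF test, over Days 1 to 4 or on a single day, under any alternative. The sign of the LIF effect over Days 1 to 4 turned as follows. With the Cy3 arrays turned it was -0.51 (BG063873), -0.11 (BG064796), 0.094 (CK334837) and 0.0086 (Fth1). With equal MAD it was -0.18 (BG063873) and -0.062 (BG064796). With quantile normalization it was 0.13 (BG064795), 0.39 (BG064794), 0.30 (BG064474), 0.24 (CK334837) and 0.0076 (Sod1), and 0.22 for Ftl1 and 0.0076 for Sod1 by gene. Centred within slides it was 0.037 (BG064474), 0.13 (CK334837) and 0.084 (Sod1), centred on the clones tested 0.095 (CK334837) and 0.046 (Sod1), and with equal MAD within slides 0.046 (BG064795), 0.28 (BG064794) and 0.0051 (BG064474). Leaving out each array gave -0.56 to 0.50 (BG063873), -0.033 to 0.75 (BG064796), -0.54 to 0.17 (BG064474) and -0.20 to 0.094 (CK334837), and -0.38 to 0.035 for Ftl1 by gene. The Day 2 minus Day 1 LIF difference of CK334837 was -0.31 with equal MAD within slides.

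Against D0 with the Cy3 arrays turned, the mean of the EB conditions was 0.66 (BG063873), 0.46 (BG064796), 0.25 (BG064795), 0.52 (BG064794), 0.37 (BG064474), 0.15 (Sod1) and 0.49 (Fth1), which left 1 of 7 Ftl1 and Sod1 clones lower. Leaving out each array, Fth1 stood at -0.98 to -0.088 in the mean of the EB conditions. Its late minus early difference without LIF was 0.014 with quantile normalization and -0.27 to 0.12 with arrays left out. By the 2-fold limit on all 4 spots, 8 pairs of clone and condition were below the pool, against 45 by the fitted mean of centred arrays and 36 by the mean of ratios as deposited.

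Clones called in the mean of the EB conditions against D0 numbered 537, and 98 as deposited, 96 with array weights, 287 centred within slides, 176 centred on the clones tested, 220 with at least 1 array per condition, and 0 with equal MAD, equal MAD within slides, quantile normalization or turned Cy3 arrays. Without the dye term, that is with no replicate block, it was 0. Leaving out arrays gave 118 (without D0 in Cy3) to 803 (without D4+LIF in Cy3). Clones called for LIF numbered 33 at Day 1 with array weights, and 146 at Day 2 and 8 at Day 4 with only the arrays compared, which cannot give the mean of the EB conditions. With arrays left out they were 0 to 2211 over Days 1 to 4, 0 to 42 at Day 1, 0 to 182 at Day 2 and 0 to 3620 at Day 4. In both the iron handling and the antioxidant defence lists 0 genes were called against D0 as deposited, with equal MAD, quantile normalization, no dye term or turned Cy3 arrays, and 0 to 3 with arrays left out, also for LIF. The cause of these changes was not tested. The direction of the ratios, 2 arrays per condition and unknown spot brightness limit every value.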
